A study of Pistacia vera with 20 samples.

Results

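The transcriptome of intact pistachio hulls was compared between the cultivars Golden Hills and Lost Hills of *Pistacia vera* at 91 days post anthesis. The hull is the exo-mesocarp, the outer and middle fruit wall around the shell. The comparison used 8 of the 20 libraries of the series, which are the 4 Golden Hills and the 4 Lost Hills libraries that the labels give as intact hull at 91 days. All 39783 genes of the table were considered, of which 19716 were expressed highly enough to be tested. The fruit came from a commercially grown orchard. The study followed how cell walls change when the hull splits, and its other libraries hold hulls at 133 days: intact and tattered Golden Hills hulls, and intact and cracked Lost Hills hulls, with 3 libraries each. The intact hulls at 133 days served here to see which cultivar differences of the younger hull were also found later. The labels call the libraries of a group biological replicates without saying whether they came from separate trees or pooled fruit. The p-values therefore rest on the spread between libraries of a group, estimated jointly over all 20 libraries of the series.

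A pistachio hull is a thin green fruit wall. It is covered by a cuticle of cutin and wax, carries resin ducts that make terpenes, and stores phenolic compounds such as flavonoids and gallotannins. Its cells are held together by walls of cellulose, xyloglucan and pectin, which expansins, xyloglucan endotransglucosylases and pectinesterases loosen or remodel as the fruit grows and ripens. Cultivars of one species can differ in alleles and gene copies as well as in regulation, and families that recognise pathogens, the NLR receptors and receptor-like kinases, are known to vary much in copy number between plant genotypes.

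Values are FPKM as the authors deposited them, read counts scaled to gene length and to a size of each library. These sizes did not follow the read totals. Lost Hills replicate 1 at 91 days held 16116971 reads at a size of 1.72e7. Golden Hills intact replicate 1 at 133 days held 16505082 reads at 1.55e7. In every library the size was 1.7267e7 to 1.7269e7 times a size factor. That factor is the median over genes of a library's reads relative to the geometric mean of all libraries. Each 91 day library held 16116971 to 18609861 reads on genes, averaging 17643367 ± 779782 for the 4 Golden Hills and 17112543 ± 891030 for the 4 Lost Hills libraries (SD). At the median length of the tested genes, 1638 bases, 1 FPKM stood for about 30.1 reads. Markers of the epidermis, such as 3-ketoacyl-CoA synthases of wax synthesis, were present in all libraries, with summed levels of 209 to 224 FPKM in Golden Hills (median 215) and 162 to 230 FPKM in Lost Hills (median 207). Genes of green tissue summed to 913 to 1381 FPKM in Golden Hills (median 1007) and 922 to 1154 FPKM in Lost Hills (median 1027). Markers of the lignified shell summed to 98.8 to 118 FPKM in Golden Hills and 88.7 to 110 FPKM in Lost Hills, and 0 of the 12 tested were called different by limma, with 0 at an unadjusted p under 0.05 and 0 by voom. Markers of the kernel summed to 749 to 1186 FPKM in Golden Hills and 677 to 763 FPKM in Lost Hills. Most of that sum was the late embryogenesis abundant protein At5g17165, while the 24 storage and oil body genes summed to 53.9 to 97.7 FPKM in Golden Hills and 49.8 to 113 FPKM in Lost Hills, most of it oleosin. The highest kernel sum, 1186 FPKM, was in Golden Hills replicate 1. The part of shell or kernel tissue in the differences below was not tested.

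Both replicate 2 libraries stood between the cultivars. Genes that tell the cultivars apart were taken from the 133 day hulls, as genes with at least 5 FPKM in all 6 libraries of one cultivar and at most 3 reads in all 6 of the other. Of 16 such Golden Hills genes, 14 were expressed at 91 days. In Lost Hills replicate 2 all 14 had more than 3 reads, at a median of 36.9% of the Golden Hills level (26.3% to 49.4%), whereas the medians were 1.18%, 0.554% and 0% in Lost Hills replicates 1, 3 and 4, where 4, 0 and 0 of the 14 exceeded 3 reads and the highest level was 8.21%, in replicate 1. Of 13 such Lost Hills genes, 12 were expressed at 91 days. All 12 had more than 3 reads in Golden Hills replicate 2, at a median of 27.1% of the Lost Hills level (19.5% to 43.7%). In Golden Hills replicate 3, 11 of the 12 exceeded 3 reads, at a median of 9.15% (3.16% to 14.8%), and in replicates 1 and 4 the median was 0%, with 1 of the 12 above 3 reads in each. Results are therefore given with all 8 libraries and without the 2 replicate 2 libraries, and Golden Hills replicate 3 was left out as well in a further fit.

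Both replicate 2 libraries also lay between the cultivars over genes that were chosen without them. For the 583 genes called without them with an absolute log2 difference of at least 1, each library was placed on a scale from 0% (the mean of Lost Hills replicates 1, 3 and 4) to 100% (the mean of Golden Hills replicates 1, 3 and 4). Golden Hills replicate 2 had a median position of 73.2% (quartiles 57.1% and 84.4%). Lost Hills replicate 2 had one of 35.9% (24.6% and 49.3%). Golden Hills replicate 3 lay at 94.5% (82.2% and 103%). Replicates 1, 3 and 4 were used to choose these genes and to set both ends of the scale, so they lie near its ends by construction. A library left out of that choice tends to fall inward for this reason too, by an amount that was not tested. Of the variance among the 8 libraries, 44.3% fell on the first principal component. On it the Golden Hills libraries scored −32.1, −9.998, −26 and −39.7 and the Lost Hills libraries 35.8, 8.60, 31.1 and 32.4 in order of replicate number, so that the cultivars did not overlap and both replicate 2 libraries lay nearest the middle.

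**Figure D1:**
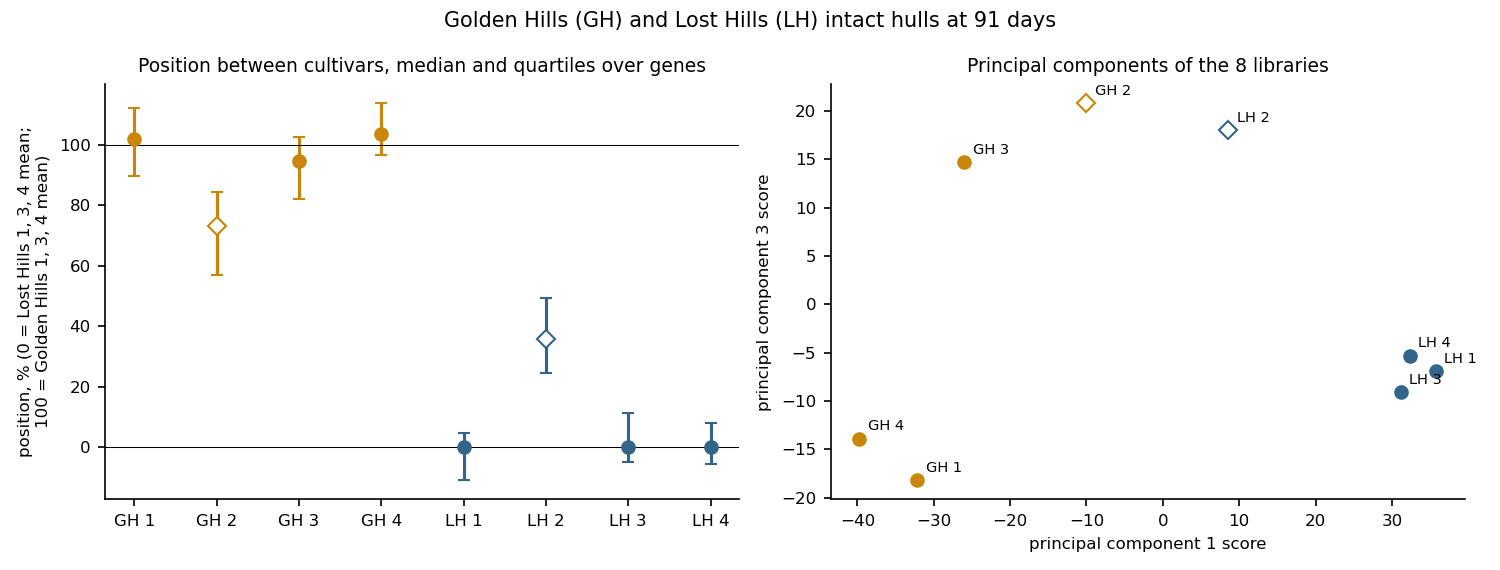
Left, the position of each 91 day library between the cultivars in percent, with the median (symbol) and quartiles (bars) over 583 genes chosen without the replicate 2 libraries; Golden Hills in yellow, Lost Hills in blue, replicate 2 as open diamonds. Golden Hills 2 sits at 73.2% and Lost Hills 2 at 35.9%, on a scale whose ends the other libraries set. Right, scores of the 8 libraries on principal components 1 and 3, where both replicate 2 libraries, at 20.8 and 18.0 on component 3, lie between the cultivars on component 1. Golden Hills 3 scores 14.7 on component 3. Component 2, with 18.4% of the variance against 10.8% for component 3, is not drawn. On it Golden Hills 1 and 4 lie farthest apart, at 35.2 and −26.9.

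With all 8 libraries, 1006 of 19716 genes tested (5.1%) were called different between the cultivars by limma, at a Benjamini-Hochberg adjusted p under 0.05. Of these, 502 (2.55% of genes tested) were higher in Golden Hills and 504 (2.56%) were lower. Most differences were moderate. The median absolute log2 difference of the called genes was 0.88, 409 reached 1 and 95 reached 2. In 915 of the 1006 (91.0%) the 4 Golden Hills and the 4 Lost Hills values did not overlap, which was so for 2476 of all genes tested (12.6%). The number of calls depended on single libraries: it was 630 without Golden Hills replicate 4 and 617 without Lost Hills replicate 1, and 532 of the 1006 genes (52.9%) stayed called whichever of the 8 libraries was left out. Without the replicate 2 libraries 1116 genes were called (5.66%), 571 higher and 545 lower. Of the 1006 genes, 919 were again called in the same direction, 91.4% of the first set and 82.3% of the second, and 975 had a larger difference without these libraries, by a median ratio of 1.18.

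The 8 named genes with the largest differences in favour of Golden Hills included 2 pairs of copies that lie close together. SRG1, a dioxygenase named for its link to senescence in Arabidopsis, was represented by evm_TU_ptg000017l_2093 (ptg000017l 37612295 to 37614992). It had 191, 104, 113 and 116 FPKM in Golden Hills, against 2.17, 49.8, 1.00 and 0.815 FPKM in Lost Hills. Golden Hills was higher in every library, and among the Lost Hills libraries replicate 2 alone stood far above 3 FPKM. This amounted to a log2 difference of 4.71 ± 0.72 (SE) with an adjusted p of 0.000457, and of 5.92 without the replicate 2 libraries (adjusted p = 1.43e-08). A second SRG1 gene close by, evm_TU_ptg000017l_2091, had 15.1, 11.4, 13.4 and 14.6 FPKM in Golden Hills, against 0.186, 4.58, 0 and 0 FPKM in Lost Hills, again with Lost Hills replicate 2 apart from the other three. Limma estimated a log2 difference of 3.18 ± 0.37 (SE, adjusted p = 4.83e-05), or 3.86 when the replicate 2 libraries were left out (adjusted p = 1.17e-11). Both differences were also present in intact hulls at 133 days, where evm_TU_ptg000017l_2093 averaged 297 FPKM in Golden Hills and 6.56 FPKM in Lost Hills (log2 difference 5.39, adjusted p = 0.000256) and evm_TU_ptg000017l_2091 averaged 10.9 FPKM in Golden Hills and 0.0988 FPKM in Lost Hills.

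Secoisolariciresinol dehydrogenase makes the lignan matairesinol from secoisolariciresinol, and 2 gene fragments on one contig carry this name. The first, evm_TU_ptg000007l_455 (ptg000007l 3984682 to 3985755), had 65.1, 41.2, 74.1 and 70.2 FPKM in Golden Hills, against 0.75, 19.3, 0.301 and 0.585 FPKM in Lost Hills. The second, evm_TU_ptg000007l_463 (ptg000007l 4057937 to 4059070), had 98.2, 59.6, 107 and 96.6 FPKM in Golden Hills, against 2.52, 32.2, 2.77 and 0.989 FPKM in Lost Hills. In both, the lowest Golden Hills library was replicate 2 and the highest Lost Hills library was replicate 2, and the groups did not overlap. For the first, on the log2 scale the difference was 4.41 ± 0.57 (SE, adjusted p = 9.78e-05), and without replicate 2 of both groups it was 5.53 (adjusted p = 7.56e-13). For the second, the log2 difference was 4.04 ± 0.56 (SE, adjusted p = 0.000183); it was 5.09 without the replicate 2 libraries (adjusted p = 1.91e-09). At 133 days the levels were lower in both cultivars, 4.91 FPKM in Golden Hills against 0.0199 FPKM in Lost Hills for the first and 10.2 FPKM in Golden Hills and 0.595 FPKM in Lost Hills for the second. The test of the change in cultivar difference between the days did not call them with all libraries (adjusted p = 0.254 and 0.476) and called both without the replicate 2 libraries (adjusted p = 8.03e-07 and 0.00404). Whether reads shared by such neighbouring copies were split or dropped in counting is not given in the sources used here, so the level of a single copy is uncertain.

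Phytoene desaturase catalyses an early step of carotenoid synthesis. The gene evm_TU_ptg000022l_967 (ptg000022l 15072669 to 15078145) had 49.3, 42.3, 54.9 and 56.8 FPKM in Golden Hills, against 0.953, 21.9, 0.204 and 0.297 FPKM in Lost Hills. Outside Lost Hills replicate 2, this gene was below 1 FPKM in Lost Hills. The gene model is 549 bases long, against a median of 1638 bases for tested genes. Levels of other genes of this function are not given here, so the values stand for this model only. Between the cultivars the log2 difference came to 4.16 ± 0.61 (SE, adjusted p = 0.000292), and to 5.23 without the replicate 2 libraries (adjusted p = 1.79e-10). Endochitinase EP3 belongs to the enzymes that cleave chitin and are induced in plant defence. Its gene evm_TU_ptg000022l_397 had 54.8, 21.9, 37.8 and 58.1 FPKM in Golden Hills, against 1.15, 11.1, 0.166 and 0.215 FPKM in Lost Hills. With all libraries the log2 difference was 4.07 ± 0.55 (SE, adjusted p = 0.000154), and without the replicate 2 pair 5.12 (adjusted p = 3.39e-08). A probable amidase (evm_TU_ptg000020l_2193) had 13.1, 5.68, 12.9 and 18 FPKM in Golden Hills, against 0.113, 3.14, 0.145 and 0.0352 FPKM in Lost Hills. Here too replicate 2 was the lowest Golden Hills and the highest Lost Hills value. The fitted difference was 3.04 ± 0.36 in log2 (SE, adjusted p = 5.67e-05), and 3.82 without the replicate 2 libraries (adjusted p = 1.09e-09). ARAD1 adds arabinose to the side chains of pectin in Arabidopsis. The gene model given here is 516 bases long. The copy evm_TU_ptg000017l_64 had 12.2, 8.45, 12.3 and 15.2 FPKM in Golden Hills, against 0, 4.75, 0.217 and 0 FPKM in Lost Hills. Limma's log2 difference was 2.98 ± 0.39 (SE, adjusted p = 0.00012), and 3.73 without both replicate 2 libraries (adjusted p = 8.14e-10).

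**Figure D2:**
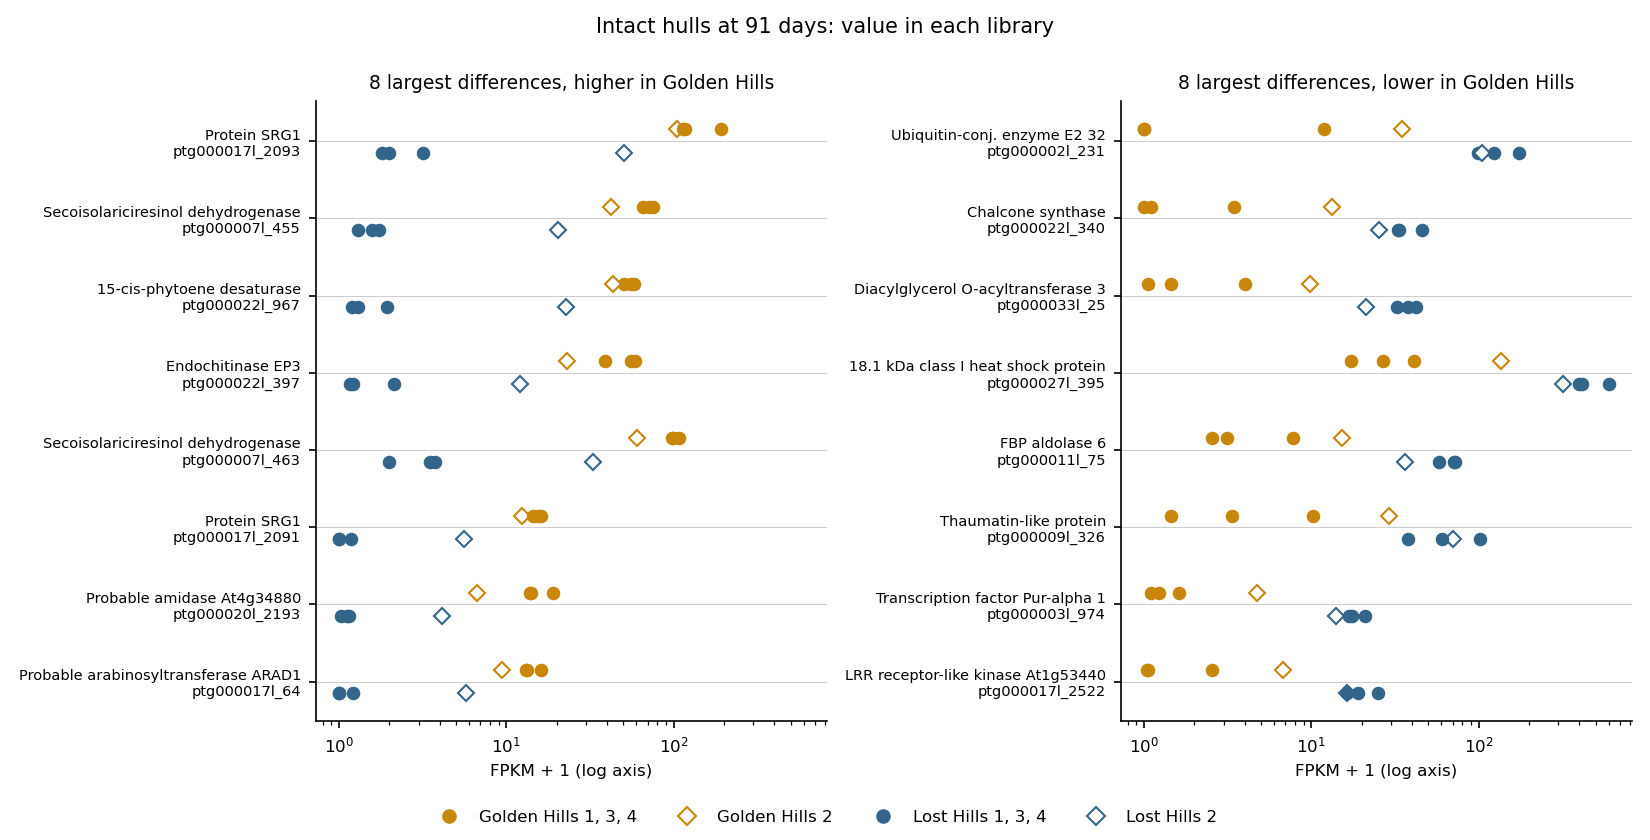
FPKM + 1 on a log axis in each 91 day library for the 16 named genes with the largest differences; Golden Hills (yellow) is drawn above Lost Hills (blue) in each row, and replicate 2 is an open diamond. The groups do not overlap in any of the 16, and replicate 2 of the cultivar with the lower level is the library nearest the other cultivar in each.

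The largest difference in favour of Lost Hills was in a gene for the ubiquitin-conjugating enzyme UBC32, which acts in protein degradation at the endoplasmic reticulum in Arabidopsis. Further genes of that name lie nearby on the contig, and reads of such copies may have been shared. The gene model given here is 369 bases long. evm_TU_ptg000002l_231 (ptg000002l 2178935 to 2180750) had 0, 34.1, 10.9 and 0 FPKM in Golden Hills, against 98.7, 105, 123 and 173 FPKM in Lost Hills. No read was assigned to it in Golden Hills replicates 1 and 4 or in any Golden Hills intact hull at 133 days, where Lost Hills averaged 259 FPKM. The log2 difference was −4.76 ± 0.84 (SE, adjusted p = 0.00169), and −5.82 without the replicate 2 libraries (adjusted p = 8.61e-05). Chalcone synthase is the first committed enzyme of flavonoid synthesis. The copy evm_TU_ptg000022l_340 (ptg000022l 4081331 to 4082714) had 0, 12.4, 2.47 and 0.106 FPKM in Golden Hills, against 32.6, 24.3, 44.6 and 32 FPKM in Lost Hills. The groups did not overlap, and Golden Hills replicates 2 and 3 were the only libraries of that cultivar above 1 FPKM. That was a log2 difference of −3.65 ± 0.54 (SE) with an adjusted p of 0.000306, and of −4.56 without the replicate 2 libraries (adjusted p = 1.62e-07).

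Diacylglycerol acyltransferase 3 joins the last fatty acid to storage oil. Its gene evm_TU_ptg000033l_25 had 0.46, 8.88, 3.00 and 0.0554 FPKM in Golden Hills, against 37.1, 20.2, 31.5 and 41.4 FPKM in Lost Hills. Limma gave a log2 difference of −3.54 ± 0.48 (SE, adjusted p = 0.000164), or −4.35 when the replicate 2 libraries were left out (adjusted p = 1.02e-06). A small heat shock protein of 18.1 kDa, a chaperone that keeps damaged proteins soluble, was the most abundant of these genes, and evm_TU_ptg000027l_395 had 25.7, 135, 39.97 and 16.3 FPKM in Golden Hills, against 397, 317, 414 and 598 FPKM in Lost Hills. Every Lost Hills library lay above every Golden Hills library. On the log2 scale the difference was −3.39 ± 0.41 (SE, adjusted p = 5.77e-05), and without replicate 2 of both groups it was −4.12 (adjusted p = 1.35e-08). Cytosolic fructose-bisphosphate aldolase 6, an enzyme of glycolysis, had 1.55, 14.3, 6.79 and 2.16 FPKM in Golden Hills, against 57.4, 35.3, 70.4 and 71.5 FPKM in Lost Hills (evm_TU_ptg000011l_75). Its log2 difference was −3.37 ± 0.39 (SE, adjusted p = 5.08e-05); it was −4.08 without the replicate 2 libraries (adjusted p = 1.21e-07).

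A thaumatin-like protein of the defence group, evm_TU_ptg000009l_326, had 2.38, 28.1, 9.18 and 0.455 FPKM in Golden Hills, against 37.1, 69.6, 101 and 59.1 FPKM in Lost Hills. Golden Hills replicate 2 came closest to the Lost Hills values. Between the cultivars the log2 difference came to −3.36 ± 0.68 (SE, adjusted p = 0.00539), and to −4.06 without the replicate 2 libraries (adjusted p = 0.000697). The transcription factor Pur-alpha 1, which binds purine-rich DNA, had 0.105, 3.74, 0.627 and 0.228 FPKM in Golden Hills, against 16.4, 13.1, 15.8 and 20.01 FPKM in Lost Hills (evm_TU_ptg000003l_974). Its gene model is 495 bases long. With all libraries the log2 difference was −3.25 ± 0.31 (SE, adjusted p = 1.26e-05), and without the replicate 2 pair −3.82 (adjusted p = 8.09e-10). The LRR receptor-like kinase At1g53440 had 0.0437, 5.76, 1.55 and 0.0631 FPKM in Golden Hills, against 24, 15.3, 18.1 and 15.3 FPKM in Lost Hills (evm_TU_ptg000017l_2522). The fitted difference was −3.18 ± 0.44 in log2 (SE, adjusted p = 0.000183), and −3.81 without the replicate 2 libraries (adjusted p = 2.27e-06). All 16 genes stayed called whichever single library was left out and without both replicate 2 libraries and Golden Hills replicate 3. Of the 16, 15 were called in the same direction in intact hulls at 133 days, and chalcone synthase was not.

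No gene met the strictest description with all 8 libraries, at least 5 FPKM in each library of one cultivar and at most 3 reads in each of the other. Without the replicate 2 libraries 22 genes did so for Golden Hills and 2 for Lost Hills. These counts cannot be set against each other, because Golden Hills replicate 3 was kept. It exceeded 3 reads for 11 of the 12 Lost Hills genes that tell the cultivars apart. Lost Hills replicates 1, 3 and 4 did so for 4, 0 and 0 of the 14 Golden Hills genes. The counts without Golden Hills replicate 3 were not tested. The 22 included SRG1 (evm_TU_ptg000017l_2091), ARAD1 in 2 copies, peroxisome biogenesis protein 1, cytosolic sulfotransferase 5, the NLR gene annotated as At4g19520, a PR5-like receptor kinase and a retrotransposon Pol polyprotein. Of the 22, 20 also had at most 3 reads in every Lost Hills intact library at 133 days, and 17 had at least 5 FPKM in every Golden Hills intact library there. The 2 Lost Hills genes were a Pumilio homolog 5, a protein of an RNA-binding family, and a gene with no protein name. These genes were named after their values were seen.

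Called genes lay next to each other on the assembly. Of the 502 genes higher in Golden Hills, 188 (37.5%) had an adjacent tested gene that was also higher, against 4.68% of all genes tested. Of the 504 lower genes, 141 (28.0%) had a lower neighbour, against 4.76% of all genes tested. Neighbours called in the opposite direction stood beside 5.58% of the higher and 5.16% of the lower genes. Runs of at least 4 adjacent called genes in one direction numbered 16 and held 85 genes, 9 runs higher and 7 lower. On contigs with at least 100 tested genes the share called ran between 9.17% on ptg000007l, 8.45% on ptg000002l and 8.16% on ptg000017l, and 1.43% on ptg000004l, 0.976% on ptg000008l and 0.645% on ptg000016l. These coordinates refer to the authors' contigs, whose assembly is not named in the sources used here.

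The longest run, 9 genes lower in Golden Hills, spanned bases 2108339 to 2202345 of ptg000002l with a median log2 difference of −2.56. It held 2 copies of UBC32, 2 copies of Pumilio homolog 5, a chloroplast dnaJ A6 chaperone, receptor-like protein 1 and 3 genes with no protein name, and the differences ran between −4.76 and −1.13. The run's median was −3.11 without the replicate 2 libraries and −2.75 in intact hulls at 133 days, and all 9 kept their sign there. The 20 tested genes that flank the run had a median of −0.02, and 3 of them were called. These 3 were higher in Golden Hills: a UBC32 copy (log2 difference 1.23), Pumilio homolog 2 (0.79) and Pumilio homolog 1 (0.75). Other copies of UBC32, Pumilio homolog 5 and dnaJ A6 in the flanks were not called. Reads of such copies may have been shared, so the level of a single copy is uncertain. A run of 7 genes lower in Golden Hills lay on ptg000033l between bases 2895224 and 2940704 (median −2.38). It held 2 copies of 1,4-dihydroxy-2-naphthoyl-CoA thioesterase 1, guanosine deaminase, a SWI/SNF-related protein, diacylglycerol acyltransferase 3, CHUP1 and the ABC transporter B family member 11. All 7 stayed called whichever library was left out, as did 8 of the 9 genes of the ptg000002l run.

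On ptg000017l, 14 of 15 consecutive tested genes between bases 2194961 and 3101900 were called higher in Golden Hills, with a median log2 difference of 2.06 with all libraries, 2.52 without the replicate 2 libraries and 1.38 at 133 days. Of the 15, 5 carry a protein name, 3 of them as copies of ARAD1. A run of 7 higher genes on ptg000009l between bases 17846186 and 17924930 had a median of 1.28 and held 2 NLR genes, TMV resistance protein N and RUN1. The other 5 of its genes have no protein name.

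**Figure D3:**
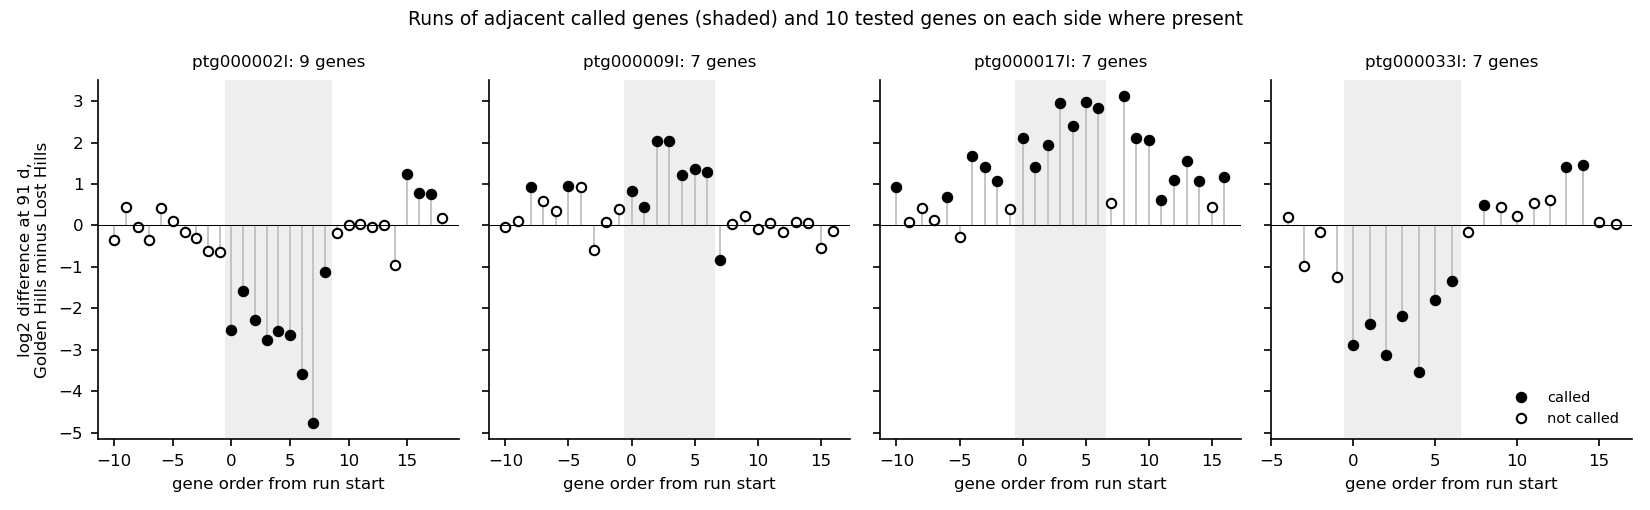
The log2 difference at 91 days (Golden Hills minus Lost Hills) of each tested gene in order along 4 contigs, counted from the first gene of a run of adjacent called genes (shaded); filled points are called, open points are not. The runs on ptg000002l and ptg000033l lie below 0 with medians of −2.56 and −2.38, and those on ptg000009l and ptg000017l lie above 0.

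Gene groups were described by the share of their tested genes that were called, beside the 5.1% of all genes, or 5.66% without the replicate 2 libraries. NLR disease resistance proteins, the intracellular receptors that recognise pathogen effectors, had 52 of 300 genes called (17.3%), 26 higher and 26 lower in Golden Hills, with a median log2 difference of 0.03 over the list. Without the replicate 2 libraries 49 were called (16.3%), and 33 of the 52 stayed called whichever library was left out. The largest difference in favour of Golden Hills among them was the gene annotated as At4g19520 (evm_TU_ptg000001l_4141), with 9.89, 8.21, 9.58 and 6.65 FPKM in Golden Hills, against 0.0476, 3.51, 0 and 0.0446 FPKM in Lost Hills. Limma's log2 difference was 2.67 ± 0.34 (SE, adjusted p = 9.05e-05), and 3.22 without both replicate 2 libraries (adjusted p = 2.45e-09). The largest in favour of Lost Hills was TMV resistance protein N (evm_TU_ptg000001l_3985), with 0.0735, 4.51, 1.41 and 0.091 FPKM in Golden Hills, against 18.6, 11.3, 14.6 and 14.5 FPKM in Lost Hills. The log2 difference was −2.97 ± 0.35 (SE, adjusted p = 5.3e-05), and −3.57 without the replicate 2 libraries (adjusted p = 3.26e-08). Both lie on the contig ptg000001l, and both were called in the same direction at 133 days. Another NLR gene was at a low level: Golden Hills averaged 1.74 FPKM and Lost Hills 0.14 FPKM for another copy of TMV resistance protein N (evm_TU_ptg000001l_4378), named after its values were seen. Some NLR genes are near-identical copies in many plants, and the authors' counting could split or drop reads between such copies.

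Receptor-like kinases, which sense signals at the cell surface, had 49 of 582 genes called (8.42%), 27 higher and 22 lower, and 61 without the replicate 2 libraries (36 higher and 25 lower). A PR5-like receptor kinase (evm_TU_ptg000024l_1703) had 7.31, 5.58, 6.51 and 6.18 FPKM in Golden Hills, against 0, 2.46, 0.164 and 0 FPKM in Lost Hills. It was at or below 0.164 FPKM in Lost Hills outside replicate 2. This amounted to a log2 difference of 2.38 ± 0.29 (SE) with an adjusted p of 6.28e-05, and of 2.86 without the replicate 2 libraries (adjusted p = 1.03e-08). Wall-associated receptor kinases, which bind pectin, were called in both directions. WAK-like 1 (evm_TU_ptg000003l_82) averaged 1.27 FPKM in Golden Hills and 12 FPKM in Lost Hills (log2 difference −2.78, adjusted p = 5.23e-05), and the neighbours WAK2 evm_TU_ptg000001l_3404 and evm_TU_ptg000001l_3403 had log2 differences of 0.99 and −1.49. The call of evm_TU_ptg000001l_3404 was lost when any of 6 libraries was left out (Golden Hills 1, 2 or 3, or Lost Hills 1, 3 or 4; adjusted p up to 0.152). The wall-associated kinases were picked after their values were seen.

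Of 129 tested defence proteins (chitinases, glucanases, thaumatin-like and related proteins), 11 were called (8.53%), 7 higher and 4 lower in Golden Hills, and 16 were called without the replicate 2 libraries. Beside endochitinase EP3 above, an acidic endochitinase (evm_TU_ptg000019l_498) averaged 4.78 FPKM in Golden Hills and 0.694 FPKM in Lost Hills, and an MLP-like protein (evm_TU_ptg000024l_701) averaged 79.7 FPKM in Golden Hills and 25.8 FPKM in Lost Hills. Thaumatin-like proteins moved both ways. Thaumatin-like protein 1 (evm_TU_ptg000013l_125) averaged 176 ± 124 FPKM in Golden Hills and 37.8 ± 24.5 FPKM among the 4 Lost Hills libraries (SD, n = 4 in either), with a log2 difference of 2.17 and an adjusted p of 0.0069 by limma. The thaumatin-like gene evm_TU_ptg000009l_326, given above, differed in the other direction. The acidic endochitinase, the MLP-like protein and thaumatin-like protein 1 were named after their values were seen, and 5 of the 11 stayed called whichever library was left out.

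Among enzymes that loosen walls, 8 of 49 tested expansins, xyloglucan enzymes and endoglucanases were called (16.3%), 4 higher and 4 lower, also without the replicate 2 libraries. Xyloglucan endotransglucosylases cut and rejoin the xyloglucan chains that tie cellulose fibres together. XTH2 (evm_TU_ptg000022l_937) had 111, 57.2, 56 and 44.1 FPKM in Golden Hills, against 18.1, 26.1, 8.32 and 4.41 FPKM in Lost Hills. The groups did not overlap. Limma estimated a log2 difference of 2.33 ± 0.48 (SE, adjusted p = 0.00591), or 2.74 when the replicate 2 libraries were left out (adjusted p = 0.00375). Its direct neighbour, a second gene model named XTH2 (evm_TU_ptg000022l_938), averaged 65.3 FPKM in Golden Hills and 15.7 FPKM in Lost Hills, and reads of the pair may have been shared. The first model is 444 bases long and ends at base 14265841 of ptg000022l, and the second runs from 14265895 to 14266212. Whether the 2 models are parts of a single gene was not tested, and both count among the 8. Both were also higher in Golden Hills at 133 days (log2 difference 3.88 and 3.97). In the other direction, the XTH gene evm_TU_ptg000013l_1301 had 25.2, 33.5, 23.4 and 19.1 FPKM in Golden Hills, against 83, 46.3, 54.6 and 64 FPKM in Lost Hills. On the log2 scale the difference was −1.25 ± 0.25 (SE, adjusted p = 0.0047), and without replicate 2 of both groups it was −1.52 (adjusted p = 0.00246). Endoglucanase 8 (evm_TU_ptg000024l_1465), which cuts glucan chains, averaged 12.6 FPKM in Golden Hills and 2.55 FPKM in Lost Hills (log2 difference 1.85, adjusted p = 0.00186). That gene and evm_TU_ptg000022l_938 were named after their values were seen.

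Among pectin enzymes 3 of 80 tested were called (3.75%), 2 higher and 1 lower, and 6 without the replicate 2 libraries (4 higher and 2 lower). That second count was 7.5% of the list. None of the 3 calls held whichever library was left out. Pectinesterase 61 (evm_TU_ptg000009l_1704), which removes methyl groups from pectin, had 81.4, 58, 48.7 and 50.7 FPKM in Golden Hills, against 44.6, 46.5, 30.8 and 31.4 FPKM in Lost Hills. Its log2 difference was 0.62 ± 0.18 (SE, adjusted p = 0.0476); it was 0.72 without the replicate 2 libraries (adjusted p = 0.049). The call was lost without Golden Hills 1, 2 or 4 or Lost Hills 1, 3 or 4, with adjusted p up to 0.158. The other 2 were a polygalacturonase (evm_TU_ptg000013l_731), with 2.9 FPKM in Golden Hills and 1.39 FPKM in Lost Hills, and alpha-L-arabinofuranosidase 1 (evm_TU_ptg000003l_50), with 0.915 FPKM in Golden Hills and 2.17 FPKM in Lost Hills. Leaving out one library gave adjusted p up to 0.123 and 0.143. Both were named after their values were seen.

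Of 86 genes of wall polysaccharide synthesis, 6 were called (6.98%), 3 in each direction, and 8 without the replicate 2 libraries (4 higher and 4 lower). The list was taken by words in protein names. Among its lower genes is a zeatin O-xylosyltransferase (evm_TU_ptg000004l_244, log2 difference −1.37), whose name gives a hormone and not a wall polysaccharide. It was named after its values were seen. Cellulose synthase-like protein E1 (evm_TU_ptg000017l_2614) had 51.2, 39.5, 41.1 and 47.3 FPKM in Golden Hills, against 8.34, 24, 7.2 and 7.75 FPKM in Lost Hills. Between the cultivars the log2 difference came to 2.00 ± 0.27 (SE, adjusted p = 0.000162), and to 2.44 without the replicate 2 libraries (adjusted p = 3.94e-07). Cellulose synthase-like protein G2 (evm_TU_ptg000010l_166) had 0.122, 2.04, 0.486 and 0.309 FPKM in Golden Hills, against 7.2, 5.55, 6.69 and 7.7 FPKM in Lost Hills. Both kept the direction at 133 days and stayed called whichever library was left out. With all libraries the log2 difference was −2.27 ± 0.28 (SE, adjusted p = 6.28e-05), and without the replicate 2 pair −2.66 (adjusted p = 2.81e-06). Of 119 lignin and peroxidase genes, 3 were called (2.52%), 2 higher and 1 lower with or without the replicate 2 libraries. Cinnamoyl-CoA reductase-like SNL6 (evm_TU_ptg000007l_1345), related to an enzyme of monolignol synthesis, had 14.2, 13.9, 27.4 and 37 FPKM in Golden Hills, against 11.8, 11.3, 12.6 and 8.03 FPKM in Lost Hills. The fitted difference was 0.92 ± 0.24 in log2 (SE, adjusted p = 0.0306), and 1.13 without the replicate 2 libraries (adjusted p = 0.0147). Its call was lost without Golden Hills 3 or 4 or Lost Hills 1 or 4 (adjusted p up to 0.111). The other 2, named after their values were seen, were a probable cinnamyl alcohol dehydrogenase (evm_TU_ptg000013l_1453), with 0.827 FPKM in Golden Hills and 0.0675 FPKM in Lost Hills, and dirigent protein 23 (evm_TU_ptg000020l_2169), with 2.41 FPKM in Golden Hills and 4.15 FPKM in Lost Hills. The dirigent call was lost without the replicate 2 libraries (adjusted p = 0.0555) and without Golden Hills 2, 3 or 4 or Lost Hills 1, 3 or 4 (up to 0.134).

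Flavonoid enzymes had 3 of 68 genes called (4.41%), all 3 lower in Golden Hills with or without the replicate 2 libraries, while the list's median log2 difference was 0.13. The 2 chalcone synthase copies lie next to each other, and the second (evm_TU_ptg000022l_341, named after its values were seen) averaged 0.0364 FPKM in Golden Hills and 1.84 FPKM in Lost Hills. Reads of the pair may have been shared. The third was an anthocyanidin glucosyltransferase fragment (evm_TU_ptg000011l_747), named likewise, at 0.131 FPKM in Golden Hills and 0.932 FPKM in Lost Hills. All 3 calls held whichever library was left out. In intact hulls at 133 days the first copy, evm_TU_ptg000022l_340, averaged 0 FPKM in Golden Hills and 0.209 FPKM in Lost Hills.

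Terpene and isoprenoid enzymes had 3 of 69 genes called (4.35%), all 3 higher in Golden Hills, and 4 without the replicate 2 libraries (3 higher and 1 lower). Nerolidol synthase, which makes a volatile sesquiterpene alcohol, had 9.65, 7.91, 11.5 and 24.4 FPKM in Golden Hills, against 2.15, 4.74, 6.24 and 4.28 FPKM in Lost Hills (evm_TU_ptg000017l_1360). Limma's log2 difference was 1.36 ± 0.32 (SE, adjusted p = 0.0159), and 1.60 without both replicate 2 libraries (adjusted p = 0.0146). The other 2, named after their values were seen, supply the precursors of sterols and terpenes. HMG-CoA reductase 1 (evm_TU_ptg000001l_2352) averaged 227 FPKM in Golden Hills and 135 FPKM in Lost Hills, and squalene synthase (evm_TU_ptg000020l_2553) averaged 124 FPKM in Golden Hills and 85 FPKM in Lost Hills. None of the 3 calls held whichever library was left out. The nerolidol synthase call was lost without Golden Hills 4 or Lost Hills 1 (adjusted p up to 0.0736), HMG-CoA reductase without Golden Hills 3 or 4 or Lost Hills 1 or 4 (up to 0.124), and squalene synthase without Golden Hills 3 or 4 or Lost Hills 1, 2 or 4 (up to 0.0937).

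In the surface layer, 3 of 53 cutin, wax and suberin enzymes were called (5.66%), all 3 higher in Golden Hills, and 4 without the replicate 2 libraries (4 higher and 0 lower). 3-ketoacyl-CoA synthase 11 (evm_TU_ptg000001l_1455), which elongates fatty acids for wax, had 5.24, 4.42, 6.51 and 8.92 FPKM in Golden Hills, against 2.57, 3.41, 3.01 and 2.23 FPKM in Lost Hills. The log2 difference was 0.91 ± 0.25 (SE, adjusted p = 0.0416), and 1.11 without the replicate 2 libraries (adjusted p = 0.0314). Its call was lost without Golden Hills 1, 3 or 4 or Lost Hills 1, 3 or 4 (adjusted p up to 0.163). 3-ketoacyl-CoA synthase 4 (evm_TU_ptg000020l_2438) averaged 34.5 FPKM in Golden Hills and 18.6 FPKM in Lost Hills, and the call was lost without Golden Hills 3 or 4 or Lost Hills 1 or 3 (up to 0.144). Cytochrome P450 94A1 (evm_TU_ptg000003l_1060), of a family that hydroxylates fatty acids, averaged 1.34 FPKM in Golden Hills and 0.332 FPKM in Lost Hills. The last 2 were named after their values were seen. Both ketoacyl-CoA synthases are among the epidermis markers, 2 of 19 of which were called, both higher in Golden Hills, and whether the epidermis made up a larger share of the Golden Hills samples was not tested. In bulk tissue, more cells of a type and more RNA per cell cannot be told apart.

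Lipid transfer and GDSL proteins had 4 of 84 genes called (4.76%), all 4 lower in Golden Hills, and 5 without the replicate 2 libraries (1 higher and 4 lower). Lipid transfer protein 2 (evm_TU_ptg000003l_816), of a family that carries cuticle lipids, had 158, 168, 148 and 175 FPKM in Golden Hills, against 280.4, 241, 399.9 and 372 FPKM in Lost Hills. That was a log2 difference of −0.96 ± 0.20 (SE) with an adjusted p of 0.00611, and of −1.11 without the replicate 2 libraries (adjusted p = 0.00596). At 133 days the log2 difference was −0.92 (adjusted p = 0.00984). The other 3, named after their values were seen, were 2 GPI-anchored lipid transfer proteins (evm_TU_ptg000005l_307 and evm_TU_ptg000002l_628, log2 differences −0.58 and −1.04) and GDSL lipase At5g08460 (evm_TU_ptg000013l_1039, −1.10). The call of evm_TU_ptg000005l_307 was lost without Golden Hills 1, 3 or 4 or Lost Hills 1, 3 or 4 (adjusted p up to 0.103).

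Cytochrome P450 enzymes, which oxidise many plant metabolites, had 12 of 135 genes called (8.89%), 11 higher and 1 lower in Golden Hills, and 11 without the replicate 2 libraries (10 higher and 1 lower). The median log2 difference of the list was 0.07. P450 81Q32 (evm_TU_ptg000001l_4478) had 15.4, 9.21, 14 and 21.2 FPKM in Golden Hills, against 2.85, 5.05, 2.19 and 2.2 FPKM in Lost Hills. Limma gave a log2 difference of 1.97 ± 0.22 (SE, adjusted p = 3.48e-05), or 2.37 when the replicate 2 libraries were left out (adjusted p = 1.44e-07). The lower gene, CYP749A22 (evm_TU_ptg000024l_320), had 7.93, 13, 8.69 and 12.7 FPKM in Golden Hills, against 22.6, 18.1, 20.6 and 22.7 FPKM in Lost Hills. On the log2 scale the difference was −0.95 ± 0.15 (SE, adjusted p = 0.000697), and without replicate 2 of both groups it was −1.12 (adjusted p = 0.000418). A pair of adjacent copies of P450 83B1, named after their values were seen, averaged 8.84 and 19.5 FPKM in Golden Hills, against 2.49 and 6.35 FPKM in Lost Hills (evm_TU_ptg000001l_2402 and evm_TU_ptg000001l_2403). UDP-glycosyltransferases, which attach sugars to small molecules, had 11 of 149 called (7.38%), 5 higher and 6 lower, and 14 without the replicate 2 libraries (7 higher and 7 lower). UGT74E2 (evm_TU_ptg000022l_229) had 0.496, 1.63, 1.06 and 0.46 FPKM in Golden Hills, against 5.45, 3.75, 8.52 and 7.26 FPKM in Lost Hills. Its log2 difference was −1.92 ± 0.37 (SE, adjusted p = 0.0033); it was −2.27 without the replicate 2 libraries (adjusted p = 0.00242). UGT76B1 (evm_TU_ptg000009l_321) had 35.9, 22.1, 25.8 and 28.4 FPKM in Golden Hills, against 17.7, 18.5, 18.9 and 17.8 FPKM in Lost Hills. Between the cultivars the log2 difference came to 0.58 ± 0.16 (SE, adjusted p = 0.0462), and to 0.69 without the replicate 2 libraries (adjusted p = 0.0393). That call was lost without any library but Golden Hills 2 (adjusted p up to 0.141).

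Of 86 ethylene genes, 4 were called (4.65%), 1 higher and 3 lower in Golden Hills, and 5 without the replicate 2 libraries (1 higher and 4 lower). ERF1 (evm_TU_ptg000019l_870), a transcription factor activated by ethylene, had 22.2, 23.3, 16 and 15.8 FPKM in Golden Hills, against 53.9, 25.6, 45.3 and 72.3 FPKM in Lost Hills. It was lower in all 4 Golden Hills libraries. With all libraries the log2 difference was −1.24 ± 0.27 (SE, adjusted p = 0.0103), and without the replicate 2 pair −1.60 (adjusted p = 0.000946). The ethylene receptors ERS1 (evm_TU_ptg000019l_868) and ETR2 (evm_TU_ptg000022l_2191) averaged 86.4 and 51.8 FPKM in Golden Hills, against 124 and 85.7 FPKM in Lost Hills, and at 133 days both were higher in Golden Hills (log2 difference 0.81 and 1.65, adjusted p = 0.00112 and 9.37e-05). ERF034 (evm_TU_ptg000019l_135) averaged 3.47 FPKM in Golden Hills and 1.66 FPKM in Lost Hills at 91 days. These last 3 were named after their values were seen, and each lost its 91 day call when any of 5 libraries was left out: for ERS1 Golden Hills 1, 3 or 4 or Lost Hills 3 or 4 (adjusted p up to 0.0931), for ETR2 Golden Hills 3 or 4 or Lost Hills 1, 3 or 4 (up to 0.135), and for ERF034 Golden Hills 3 or 4 or Lost Hills 2, 3 or 4 (up to 0.143).

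Jasmonate and lipoxygenase genes had 3 of 45 called (6.67%), 1 higher and 2 lower, and 5 without the replicate 2 libraries (2 higher and 3 lower). The list's extremes are both named as enzymes that join jasmonate to amino acids, the step that makes the active hormone. The GH3.5 gene model is 321 bases long and that of JAR4 3058 bases, so the GH3.5 values stand for this model only. GH3.5 (evm_TU_ptg000007l_1688) had 27.1, 20.9, 26.9 and 22.5 FPKM in Golden Hills, against 4.71, 11.5, 5.4 and 12.2 FPKM in Lost Hills. The fitted difference was 1.52 ± 0.23 in log2 (SE, adjusted p = 0.000513), and 1.75 without the replicate 2 libraries (adjusted p = 0.00037). JAR4 (evm_TU_ptg000019l_522) had 46.2, 52.6, 41 and 40.01 FPKM in Golden Hills, against 108, 68, 103 and 101 FPKM in Lost Hills. The groups did not overlap for either gene, and the directions were opposite. Limma's log2 difference was −1.05 ± 0.15 (SE, adjusted p = 0.000268), and −1.28 without both replicate 2 libraries (adjusted p = 1.8e-05). 12-oxophytodienoate reductase 2 (evm_TU_ptg000001l_4017), named after its values were seen, averaged 3.55 FPKM in Golden Hills and 6.63 FPKM in Lost Hills, and its call was lost without Golden Hills 1 or 4 or Lost Hills 3 or 4 (adjusted p up to 0.109).

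Auxin genes had 4 of 68 called (5.88%), all 4 lower in Golden Hills, and 4 without the replicate 2 libraries (1 higher and 3 lower). Auxin-induced protein 22D (evm_TU_ptg000019l_3097), a repressor of the auxin response, had 7.02, 7.21, 4.43 and 5.92 FPKM in Golden Hills, against 15.7, 12.3, 17.1 and 14.6 FPKM in Lost Hills. The log2 difference was −1.17 ± 0.28 (SE, adjusted p = 0.0199), and −1.32 without the replicate 2 libraries (adjusted p = 0.0292). The call was lost without Golden Hills 3 or 4 or Lost Hills 1 or 3 (adjusted p up to 0.0728). GH3.6 (evm_TU_ptg000019l_1038), YUCCA10 (evm_TU_ptg000019l_998) and IAA11 (evm_TU_ptg000019l_1525), named after their values were seen, had log2 differences of −0.62, −0.64 and −0.80. YUCCA10 lost its call without the replicate 2 libraries (adjusted p = 0.0575) and without any single library but Golden Hills 1 or 2 (up to 0.138). IAA11 lost its call without Golden Hills 1, 2 or 4 or Lost Hills 1, 3 or 4 (up to 0.132). No gene was called by limma among 30 tested abscisic acid genes, where 6 had an unadjusted p under 0.05 and voom called 0. The same held for 30 gibberellin genes, with 6 at an unadjusted p under 0.05 and 1 called by voom, and without the replicate 2 libraries 3 were called, all lower in Golden Hills.

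Among transcription factors, bHLH proteins had 8 of 63 called (12.7%), 2 higher and 6 lower in Golden Hills, with or without the replicate 2 libraries. bHLH162 (evm_TU_ptg000019l_2113) had 111, 93.9, 80.7 and 95.1 FPKM in Golden Hills, against 20.5, 60.5, 26.1 and 47.5 FPKM in Lost Hills. Golden Hills was higher in every library. This amounted to a log2 difference of 1.40 ± 0.31 (SE) with an adjusted p of 0.0112, and of 1.65 without the replicate 2 libraries (adjusted p = 0.00624). bHLH94 (evm_TU_ptg000007l_430) had 4.58, 3.85, 3.18 and 3.12 FPKM in Golden Hills, against 8.68, 6.07, 9.26 and 6.17 FPKM in Lost Hills. Limma estimated a log2 difference of −0.86 ± 0.22 (SE, adjusted p = 0.0269), or −0.96 when the replicate 2 libraries were left out (adjusted p = 0.0407). The bHLH162 call was lost without Lost Hills 1 (adjusted p = 0.052) and the bHLH94 call without Golden Hills 3 or 4 or Lost Hills 1 or 3 (up to 0.097). Of the 8 bHLH calls, 2 held whichever library was left out.

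WRKY factors, many of which act in defence, had 4 of 51 called (7.84%), 1 higher and 3 lower, and 5 without the replicate 2 libraries (2 higher and 3 lower). The gene annotated as WRKY19 (evm_TU_ptg000001l_4117) had 2.54, 1.79, 1.98 and 0.446 FPKM in Golden Hills, against 6.2, 4.51, 4.72 and 5.38 FPKM in Lost Hills. It lies at bases 52159696 to 52162009 of ptg000001l, close to the called NLR gene evm_TU_ptg000001l_4114 (52147996 to 52149850). Whether it encodes a WRKY factor was not tested. On the log2 scale the difference was −1.27 ± 0.26 (SE, adjusted p = 0.00528), and without replicate 2 of both groups it was −1.37 (adjusted p = 0.014). The other 3, named after their values were seen, were WRKY9 (evm_TU_ptg000029l_29), at 3.85 FPKM in Golden Hills and 0.477 FPKM in Lost Hills, WRKY4 (evm_TU_ptg000003l_339), at 11.9 FPKM in Golden Hills and 17.6 FPKM in Lost Hills, and WRKY22 (evm_TU_ptg000019l_794), at 25.7 FPKM in Golden Hills and 47.8 FPKM in Lost Hills. WRKY4 lost its call without any library but Lost Hills 2 (adjusted p up to 0.15) and WRKY22 without Golden Hills 1, 3 or 4 or Lost Hills 1 or 3 (up to 0.0898). MYB factors had 2 of 79 called (2.53%), both lower in Golden Hills, and 5 without the replicate 2 libraries (3 higher and 2 lower). EFM (evm_TU_ptg000001l_1444), a repressor of flowering in Arabidopsis, had 14.5, 26.2, 21.7 and 20.7 FPKM in Golden Hills, against 36.4, 29.6, 39.3 and 62.6 FPKM in Lost Hills. Its log2 difference was −0.96 ± 0.24 (SE, adjusted p = 0.0247); it was −1.22 without the replicate 2 libraries (adjusted p = 0.00994). It lost its call without Golden Hills 1, 3 or 4 or Lost Hills 3 or 4 (up to 0.0951). MYB52 (evm_TU_ptg000002l_331), named after its values were seen, averaged 0.231 FPKM in Golden Hills and 1.59 FPKM in Lost Hills.

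MADS-box factors had 2 of 24 called (8.33%), 1 in each direction, and 1 without the replicate 2 libraries (1 higher and 0 lower). The floral identity factor AGAMOUS (evm_TU_ptg000017l_2069) had 156, 138, 128 and 137 FPKM in Golden Hills, against 188, 159.6, 168 and 177 FPKM in Lost Hills, a small difference without overlap. Between the cultivars the log2 difference came to −0.31 ± 0.08 (SE, adjusted p = 0.0362), and to −0.34 without the replicate 2 libraries (adjusted p = 0.0594). The call was lost without the replicate 2 libraries, and also when Golden Hills 2, 3 or 4 or Lost Hills 1, 3 or 4 was left out (adjusted p up to 0.137). SOC1 (evm_TU_ptg000019l_283), a promoter of flowering that was named after its values were seen, averaged 2.13 FPKM in Golden Hills and 0.679 FPKM in Lost Hills. Limma called none of 47 NAC factors, with 9 at an unadjusted p under 0.05, voom called 0, and 1 was called without the replicate 2 libraries.

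Heat shock proteins had 10 of 155 called (6.45%), 3 higher and 7 lower in Golden Hills, and 12 without the replicate 2 libraries (3 higher and 9 lower). Among those higher, dnaJ 49 (evm_TU_ptg000022l_2317) had 32.4, 29.4, 32.9 and 34.8 FPKM in Golden Hills, against 19.2, 23.8, 19.3 and 18.5 FPKM in Lost Hills. With all libraries the log2 difference was 0.66 ± 0.14 (SE, adjusted p = 0.00978), and without the replicate 2 pair 0.78 (adjusted p = 0.00853). Transposon-derived proteins had 13 of 84 called (15.5%), 10 higher and 3 lower, and 12 without the replicate 2 libraries (9 higher and 3 lower). A Pol polyprotein (evm_TU_ptg000009l_1662) had 9.1, 8.32, 11.3 and 11.8 FPKM in Golden Hills, against 0.077, 3.7, 0.0247 and 0.048 FPKM in Lost Hills. In Lost Hills this gene was under 0.1 FPKM outside replicate 2. The fitted difference was 2.86 ± 0.35 in log2 (SE, adjusted p = 6.57e-05), and 3.48 without the replicate 2 libraries (adjusted p = 1.97e-09). Another Pol polyprotein (evm_TU_ptg000009l_8) had 7.17, 11, 5.24 and 3.59 FPKM in Golden Hills, against 11.3, 16.3, 11.1 and 19.6 FPKM in Lost Hills. Limma's log2 difference was −1.06 ± 0.25 (SE, adjusted p = 0.0171), and −1.24 without both replicate 2 libraries (adjusted p = 0.00681). That call was lost without Golden Hills 3 or 4 or Lost Hills 4 (adjusted p up to 0.0745). Transposon genes are repeated, so their counts are uncertain.

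Photosystem and chlorophyll genes had 2 of 76 called (2.63%), both higher in Golden Hills, and 2 without the replicate 2 libraries (2 higher and 0 lower). Chlorophyll a-b binding protein 21 (evm_TU_ptg000017l_2157), of the light-harvesting antenna, had 24.3, 18.3, 21.2 and 18 FPKM in Golden Hills, against 11.1, 13.2, 9.67 and 15.1 FPKM in Lost Hills. The log2 difference was 0.70 ± 0.15 (SE, adjusted p = 0.00771), and 0.79 without the replicate 2 libraries (adjusted p = 0.0135). The other, chlorophyll a-b binding protein 8 (evm_TU_ptg000020l_96, named after its values were seen), averaged 56.2 FPKM in Golden Hills and 35 FPKM in Lost Hills, and its call was lost without Golden Hills 1 or 4 or Lost Hills 1, 3 or 4 (adjusted p up to 0.114). Cytosolic ribosomal proteins had 2 of 151 called (1.32%), both higher in Golden Hills, and 5 without the replicate 2 libraries (4 higher and 1 lower). L13-1 (evm_TU_ptg000007l_1830) had 299, 225, 249.5 and 275 FPKM in Golden Hills, against 134, 179.6, 161 and 158 FPKM in Lost Hills. That was a log2 difference of 0.72 ± 0.11 (SE) with an adjusted p of 0.000285, and of 0.86 without the replicate 2 libraries (adjusted p = 0.000112). L5 (evm_TU_ptg000022l_283, named likewise) averaged 219 FPKM in Golden Hills and 168 FPKM in Lost Hills, and its call was lost without Golden Hills 1, 3 or 4 or Lost Hills 1 or 4 (up to 0.138).

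Histone and cell division genes had 6 of 162 called (3.7%), 3 in each direction, and 9 without the replicate 2 libraries (3 higher and 6 lower). The kinesin KIN-12B (evm_TU_ptg000013l_956), which helps place the new wall in dividing cells, had 0, 2.9, 0.469 and 0 FPKM in Golden Hills, against 11.5, 8.28, 10.3 and 11.7 FPKM in Lost Hills. This gene model is 882 bases long, and its values stand for this model only. Limma gave a log2 difference of −2.87 ± 0.30 (SE, adjusted p = 2.14e-05), or −3.42 when the replicate 2 libraries were left out (adjusted p = 2.55e-09). CDC48 (evm_TU_ptg000017l_2085), an ATPase that extracts proteins for degradation, had 22.6, 18.1, 24.7 and 38.4 FPKM in Golden Hills, against 9.23, 12.2, 8.3 and 10.3 FPKM in Lost Hills. Golden Hills was higher without overlap. On the log2 scale the difference was 1.25 ± 0.23 (SE, adjusted p = 0.00277), and without replicate 2 of both groups it was 1.49 (adjusted p = 0.00169). Proteases had 11 of 302 called (3.64%), 5 higher and 6 lower, and 10 without the replicate 2 libraries (5 higher and 5 lower). Serine carboxypeptidase-like 35 (evm_TU_ptg000024l_569) had 10.7, 6.33, 11.6 and 9.24 FPKM in Golden Hills, against 1.03, 4.94, 0.924 and 0.898 FPKM in Lost Hills. Its log2 difference was 1.99 ± 0.28 (SE, adjusted p = 0.000241); it was 2.56 without the replicate 2 libraries (adjusted p = 2.07e-08). Serine carboxypeptidase-like 50 (evm_TU_ptg000024l_1549) had 3.4, 5.49, 3.02 and 1.4 FPKM in Golden Hills, against 6.22, 11.1, 12.6 and 12.4 FPKM in Lost Hills. Between the cultivars the log2 difference came to −1.46 ± 0.36 (SE, adjusted p = 0.0237), and to −1.65 without the replicate 2 libraries (adjusted p = 0.0272). That last call was lost without Golden Hills 3 or 4 or Lost Hills 3 or 4 (adjusted p up to 0.101).

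Transporters had 15 of 328 called (4.57%), 8 higher and 7 lower, and 22 without the replicate 2 libraries (14 higher and 8 lower). DETOXIFICATION 29 (evm_TU_ptg000024l_839), a carrier that exports small molecules, had 18.8, 15.8, 16.2 and 26.8 FPKM in Golden Hills, against 2.05, 7.24, 1.28 and 2.13 FPKM in Lost Hills. With all libraries the log2 difference was 2.45 ± 0.31 (SE, adjusted p = 9.78e-05), and without the replicate 2 pair 2.92 (adjusted p = 1.32e-06). The putative glycerol-3-phosphate transporter 1 (evm_TU_ptg000004l_894) had 14.9, 25.8, 15.5 and 15.3 FPKM in Golden Hills, against 48.7, 31.1, 45.1 and 42.5 FPKM in Lost Hills. The fitted difference was −1.20 ± 0.25 in log2 (SE, adjusted p = 0.00612), and −1.52 without the replicate 2 libraries (adjusted p = 0.00141). Glutathione transferase and redox genes had 7 of 146 called (4.79%), 2 higher and 5 lower, and 9 without the replicate 2 libraries (3 higher and 6 lower). MRL7L (evm_TU_ptg000022l_406), needed for chloroplast development in Arabidopsis, had 23.1, 16.7, 17.5 and 19.7 FPKM in Golden Hills, against 6.6, 12.1, 6.99 and 6.85 FPKM in Lost Hills. Limma's log2 difference was 1.18 ± 0.17 (SE, adjusted p = 0.000248), and 1.42 without both replicate 2 libraries (adjusted p = 1.2e-05). A glutathione transferase-like protein (evm_TU_ptg000001l_3979) had 15.9, 15.7, 15.3 and 13.3 FPKM in Golden Hills, against 32, 23.3, 24.7 and 35.5 FPKM in Lost Hills. The log2 difference was −0.88 ± 0.16 (SE, adjusted p = 0.00193), and −0.99 without the replicate 2 libraries (adjusted p = 0.00265).

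Sugar and starch genes had 7 of 145 called (4.83%), 4 higher and 3 lower, and 9 without the replicate 2 libraries (5 higher and 4 lower). Galactinol–sucrose galactosyltransferase 6 (evm_TU_ptg000001l_818), of raffinose synthesis, had 115, 126, 135 and 299 FPKM in Golden Hills, against 62.5, 82.4, 60.5 and 91.1 FPKM in Lost Hills. This amounted to a log2 difference of 1.08 ± 0.28 (SE) with an adjusted p of 0.0283, and of 1.24 without the replicate 2 libraries (adjusted p = 0.0372). Phosphofructokinase 2 (evm_TU_ptg000017l_2670), of glycolysis, had 21.1, 28.1, 27.4 and 28.3 FPKM in Golden Hills, against 36.2, 31.2, 36.9 and 36.1 FPKM in Lost Hills. Limma estimated a log2 difference of −0.41 ± 0.11 (SE, adjusted p = 0.0268), or −0.50 when the replicate 2 libraries were left out (adjusted p = 0.022). The first call was lost without Golden Hills 4 or Lost Hills 1 or 3 (adjusted p up to 0.0976) and the second without Golden Hills 1 or Lost Hills 1, 3 or 4 (up to 0.0835). Among 23 aquaporins limma called none, with 3 at an unadjusted p under 0.05, and voom called 0. The late embryogenesis abundant protein Lea5 (evm_TU_ptg000022l_2327) was the one called among 15 tested kernel markers, at 109 FPKM in Golden Hills and 43.3 FPKM in Lost Hills, and was named after its values were seen. Its call was lost without Golden Hills 1 or 4 or Lost Hills 1 or 4 (adjusted p up to 0.0707).

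**Figure D4:**
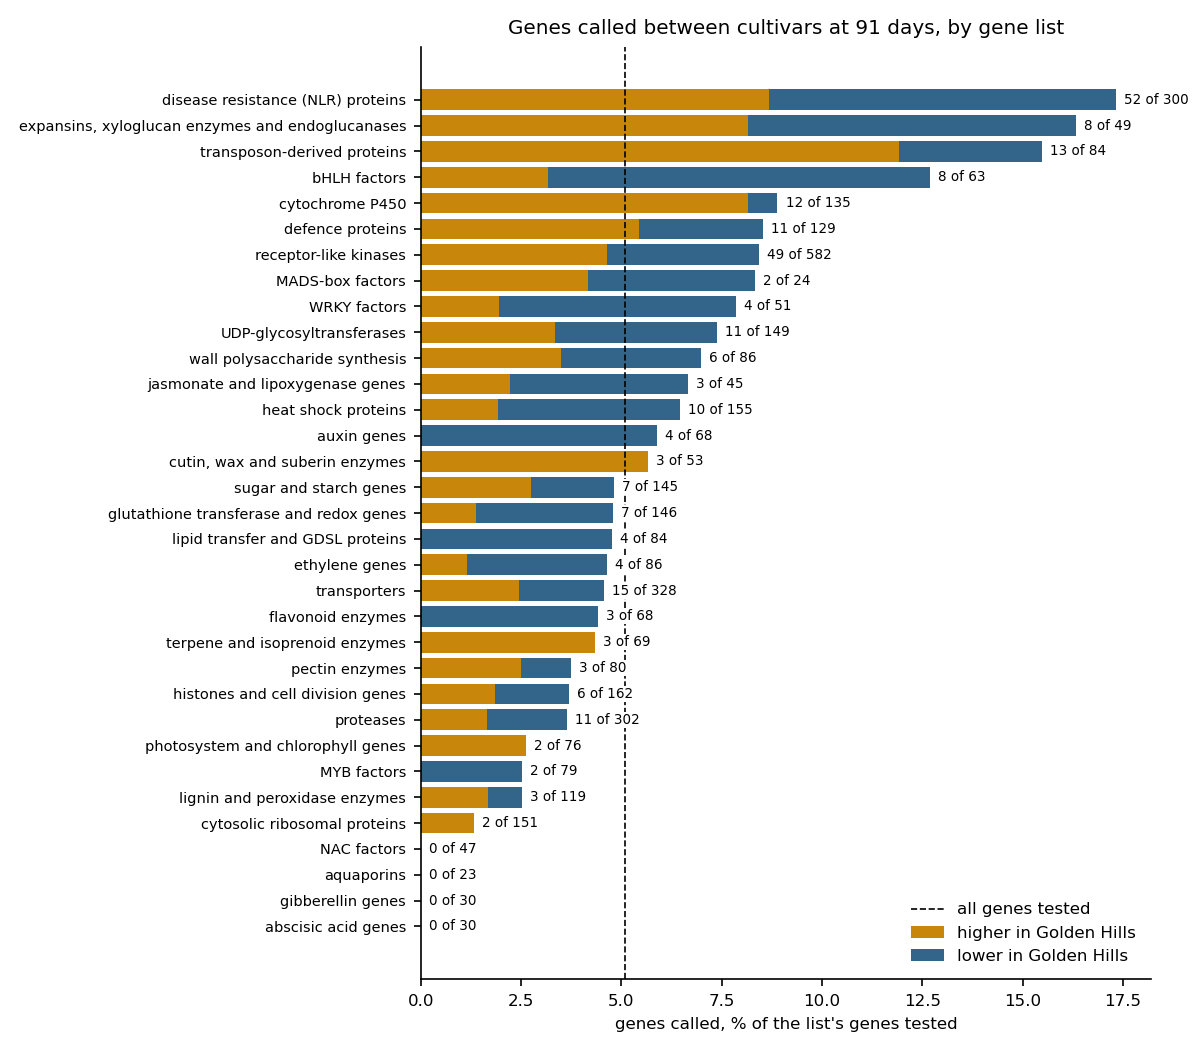
The share of each gene list's tested genes that were called at 91 days, in percent, split into genes higher (yellow) and lower (blue) in Golden Hills, with the number called of the number tested; the dashed line is the 5.1% of all genes. NLR proteins (17.3%), xyloglucan and related enzymes (16.3%) and transposon-derived proteins (15.5%) have the longest bars, and 4 lists have none called.

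In intact hulls at 133 days, which share no library with the 91 day groups, 3310 genes were called between the cultivars (16.8%). Both comparisons used the same estimate of each gene's spread, so calls at both days are not independent. The share of all genes tested with the same direction at both days is not given here. Of the 1006 genes called at 91 days, 887 (88.2%) differed in the same direction, 606 (60.2%) were called in that direction and 11 were called in the other. The 606 were 18.3% of the genes called at 133 days. The remaining 389 were not called at 133 days. How many of the 133 day calls were higher in Golden Hills depended on scaling, with 52.9% as deposited, 33.4% after scaling to TPM and 31.7% after scaling to library totals, which moved the median of all genes by −0.11 and −0.12.

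The change of the cultivar difference between the days, given as the 91 day minus the 133 day difference, was called for 649 genes (3.29%), 67 of them among the 1006, and for 411 (2.08%) without the replicate 2 libraries. The count was 392 without Golden Hills replicate 2 of the 133 day hulls, 375 without Lost Hills replicate 1 of the 133 day hulls and 414 without Lost Hills replicate 3 of the 91 day hulls. Its split by sign depended on scaling: the difference was more positive at 91 days for 37.6% of these genes as deposited, 61.8% with TPM and 59.2% with library totals, which moved the median of all genes by 0.12 and 0.11. Of the 389 genes called at 91 days and not at 133 days, 46 were called in this test, so for the others a change between the days was not shown.

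With all libraries the change was called for 8 named genes. Without the replicate 2 libraries limma also called it for both secoisolariciresinol dehydrogenase genes, the amidase evm_TU_ptg000020l_2193, DETOXIFICATION 29 and ribosomal protein L13-1. For these last 3 the change was then 2.28, 1.75 and 0.71 (adjusted p = 0.000335, 0.0213 and 0.0297). With all libraries their adjusted p was 0.154, 0.161 and 0.0569. Chalcone synthase evm_TU_ptg000022l_340 had a log2 difference of −3.65 at 91 days and −0.24 at 133 days (change −3.41, adjusted p = 0.028, and −4.32, adjusted p = 0.000279, without the replicate 2 libraries). The call was lost without Golden Hills 4 or Lost Hills 1 or 3 at 91 days, and without Golden Hills 1, 2 or 3 or Lost Hills 1 or 2 at 133 days, with adjusted p of 0.0509 to 0.0711. The putative glycerol-3-phosphate transporter evm_TU_ptg000004l_894 was lower in Golden Hills at 91 days and higher at 133 days, when it averaged 214 FPKM in Golden Hills and 67.7 FPKM in Lost Hills (log2 difference 1.60; change −2.80, adjusted p = 0.000487). Chlorophyll a-b binding protein 21 (evm_TU_ptg000017l_2157) changed in the opposite direction, with 2.88 FPKM in Golden Hills and 6.65 FPKM in Lost Hills at 133 days (change 1.71, adjusted p = 0.000433). Both held whichever library was left out.

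By the rule for named genes, the largest positive change was in HEADING DATE 3A (evm_TU_ptg000007l_1553), the rice name of a florigen, which had 2.07, 5.55, 1.34 and 1.07 FPKM in Golden Hills, against 6.52, 3.18, 1.55 and 9.96 FPKM in Lost Hills at 91 days, where the groups overlapped and limma did not call it (adjusted p = 0.492). At 133 days it averaged 2.53 FPKM in Golden Hills and 109.7 FPKM in Lost Hills (change 4.15, adjusted p = 0.00685), a call that was lost when both replicate 2 libraries and Golden Hills replicate 3 of the 91 day hulls were left out (adjusted p = 0.0512). The largest negative change was in a GDSL lipase (evm_TU_ptg000012l_365), at most 0.2 FPKM in Golden Hills and at 0 reads in Lost Hills at 91 days, and 109 FPKM in Golden Hills and 0.873 FPKM in Lost Hills at 133 days (change −6.02, adjusted p = 3.49e-07).

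For bHLH162 (evm_TU_ptg000019l_2113), bHLH94 (evm_TU_ptg000007l_430) and pectinesterase 61 (evm_TU_ptg000009l_1704) the change was 1.84, −1.44 and 1.04 (adjusted p = 0.0423, 0.0239 and 0.0404). Each of the 3 was lost when some single libraries were left out, 10, 5 and 9 of the 14 that enter the test, with adjusted p up to 0.105, 0.0726 and 0.103. The pectinesterase call was also lost without the replicate 2 libraries (adjusted p = 0.0512). Without Golden Hills replicate 3 of the 91 day hulls as well, all 3 were lost (adjusted p = 0.0508, 0.0907 and 0.0512).

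**Figure D5:**
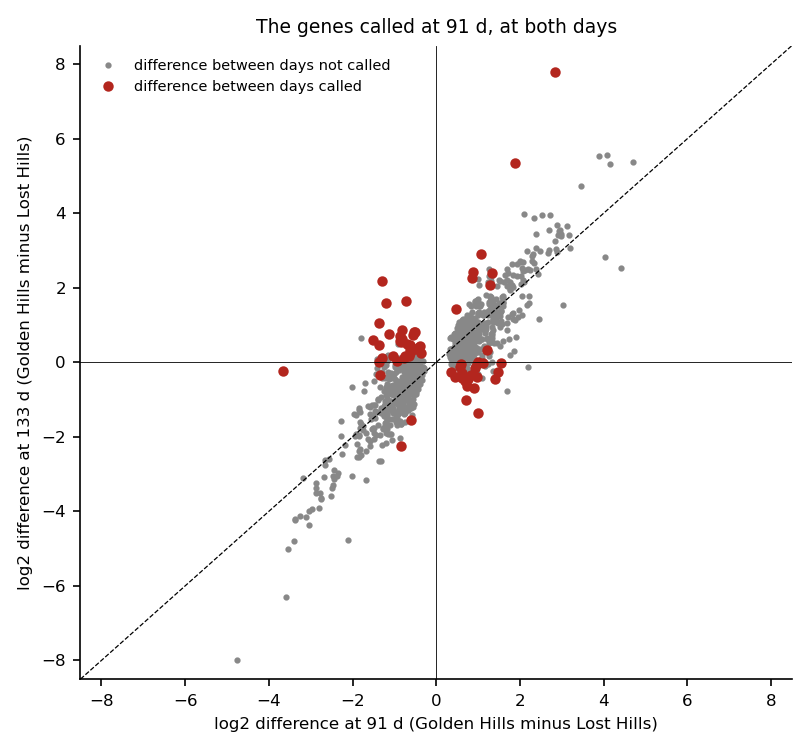
Each point is one of the 1006 genes called at 91 days, with its log2 difference (Golden Hills minus Lost Hills) at 91 days on the horizontal axis and in intact hulls at 133 days on the vertical axis; red points are the 67 genes called for the change between the days, and the dashed line marks equal differences. Points lie on the same side of 0 at both days for 887 genes, and chalcone synthase is the red point at −3.65 and −0.24.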

How the data were processed

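The deposited table gives FPKM per gene for 39783 genes and 20 libraries, of which 8 enter the 91 day comparison, and it holds 0 columns of other samples. Hull RNA was sequenced as poly-A libraries with dUTP second strands, per the labels' protocols. HISAT2 2.0.5, StringTie 1.3.3b and featureCounts 1.5.0-p3 are named, per the submitters' processing notes, and the genome build is not given in the sources used here. Gene IDs shared no identifier with the reference gene table, so gene and protein names are those of the deposited table, which names 24977 genes.

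FPKM steps gave whole reads for all genes within 0.01 read, and these set depths and the floor of 3 reads, which covers counting error only. FPKM were tested as log2(FPKM + 1), which understates the change of low genes, with limma 3.58.1 in R 4.3.3. The filter kept genes that reached 1 FPKM in 3 or more libraries, all 6 groups (20 libraries) shared one estimate of the spread, and the threshold was a Benjamini-Hochberg adjusted p under 0.05 over all 19716 genes tested. The scripts were tested on simulated data.

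Named genes were, among genes called at 91 days with a protein name, no overlap of the groups and 5 FPKM or more as the mean of the higher cultivar, the 8 largest differences in each direction and the largest in each direction of every gene list. For the change between the days they were the largest of either sign. The genes, lists and comparison were chosen with earlier results of these data known. Alternatives were other scalings, filters, pseudocounts and tools, and leaving out libraries. The fit without 3 libraries was chosen after seeing the data. Sequences were not used here.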

Additional observations from a re-analysis of the deposited data

Results flagged for a closer look

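Among the 4 libraries of each cultivar, single values stood far from the other 3 in 24 cases of 116 examined over the 58 named genes. The nominal rate of this rule, about 5% of groups, holds for independent groups and cannot be set against the 24. All groups come from the same 8 libraries, and 56 of the 58 genes were chosen for calls without overlap in them. Of these, 17 were Lost Hills replicate 2, 3 Golden Hills replicate 2, 3 Golden Hills replicate 1 and 1 Golden Hills replicate 4. The part of mixing between libraries in these values was not tested beyond the fits without replicate 2.

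In Lost Hills replicate 2 the high values were 49.8 FPKM for SRG1 (evm_TU_ptg000017l_2093), 4.58 FPKM for SRG1 (evm_TU_ptg000017l_2091), 19.3 and 32.2 FPKM for secoisolariciresinol dehydrogenase, 21.9 FPKM for phytoene desaturase, 11.1 FPKM for endochitinase EP3 and 3.14 FPKM for the amidase. They continued with 4.75 FPKM for ARAD1, 24.0 FPKM for cellulose synthase-like E1, 3.51 FPKM for the NLR gene At4g19520, 2.46 FPKM for the PR5-like receptor kinase, 7.24 FPKM for DETOXIFICATION 29, 12.1 FPKM for MRL7L, 4.94 FPKM for serine carboxypeptidase-like 35 and 3.70 FPKM for the Pol polyprotein. In the same library dnaJ 49 stood apart at 23.8 FPKM and phosphofructokinase 2 at 31.2 FPKM.

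In Golden Hills replicate 2 the values were 3.74 FPKM for Pur-alpha 1, 25.8 FPKM for the glycerol-3-phosphate transporter and 2.90 FPKM for KIN-12B. Golden Hills replicate 1 stood apart at 191 FPKM for SRG1 (evm_TU_ptg000017l_2093), 21.1 FPKM for phosphofructokinase 2 and 0.200 FPKM for the GDSL lipase, and Golden Hills replicate 4 at 299 FPKM for galactosyltransferase 6.

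With all libraries, limma's test of the change itself called a change in the cultivar difference between 91 and 133 days for 8 named genes. They were chalcone synthase (−3.41 on the log2 scale), pectinesterase 61 (1.04), bHLH162 (1.84), bHLH94 (−1.44), chlorophyll a-b binding protein 21 (1.71), the glycerol-3-phosphate transporter (−2.80), HEADING DATE 3A (4.15) and a GDSL lipase (−6.02). Of these 8 calls, 4 held whichever library was left out.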

How the results depend on the processing

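At 91 days the 1006 calls became 1730 with array weights, 468 with a mean of at least 5 FPKM, 409 at an absolute log2 difference of at least 1, and 617 to 1094 with one library left out. At 133 days the 3310 calls became 6044 with array weights, 1240 at an absolute log2 difference of at least 1, and 2121 to 3071 with one library left out. The 649 calls for the change between the days became 2024 with array weights, 411 without the replicate 2 libraries, 262 without Golden Hills replicate 3 as well, and 375 to 685 with one library left out. The cause was not tested. Whether the replicate numbers pair the samples is not stated in the labels. Deviations of same-numbered libraries correlated at −0.146, 0.0872, 0.136 and −0.0577, and those of differently numbered libraries at −0.167 to 0.123. Such correlations cannot decide whether samples were paired. Fitted on only the groups compared, limma called 884 genes at 91 days, 1681 at 133 days and 626 for the change; with the replicate number as a block added to that fit it called 0 genes at 91 days (3457 at an unadjusted p under 0.05), 882 at 133 days and 416 for the change. TPM and library totals turned the majority sign of the 133 day calls and of the calls for the change, as given above. Of 58 named calls, 56 were lost with the block, 8 with only the groups compared, 7 without both replicate 2 libraries and Golden Hills replicate 3, 12 without Golden Hills replicate 4, 11 without Lost Hills replicate 1, and 1 to 10 without another single 91 day library.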
